A study of Homo sapiens with 4 samples.

Results

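The actin cytoskeleton and serum response factor (SRF) target genes described here are a list of 38 genes given by name: actins, calponins and transgelins, myosin subunits, tropomyosins, filament crosslinkers, LIM domain proteins, actin monomer binders, and SRF with its coactivators. They were chosen by name and not picked by their values, although earlier results of these data were known. Of the 38 genes, 37 were in the expression tables of 19626 genes, with ACTA1 absent, and 31 were among the 12157 genes tested. RNA-seq was done on ES-2 cells, an established human ovarian clear cell carcinoma line that carries an endogenous YAP1-MAML2 (YM) fusion gene in every sample. Cells received pLKO.1 lentivirus encoding a non-targeting shRNA (shCtl, n = 2) or the shRNA shM2-3 (n = 2), which acts on the MAML2 sequence and therefore on both the fusion and intact MAML2. RNA was taken 96 h after the first infection according to the labels, and the samples of a group were labelled as biological replicates. The series' description speaks of independent culture without saying whether this holds within a group, so p-values measure the spread between these samples, which may be technical. The comparison asks how depletion of YM and MAML2 changed these transcripts in 1 cell line with 1 shRNA.

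Actin monomers assemble into filaments, and tropomyosins, calponins, crosslinkers and myosin motors decide how those filaments are spaced, bundled and pulled. SRF is a transcription factor that binds a DNA element called the CArG box, and the myocardin-related coactivators MRTFA and MRTFB bind free actin monomers, so that the state of the filaments controls transcription of cytoskeletal genes. In smooth muscle the same system drives contractile genes such as ACTA2, TAGLN and CNN1.

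The estimated counts summed to between 20051083 and 23978660 per library. MAML2 RPKM (a read count set against the length of the transcript and the depth of the library) was 8.61 and 8.26 in shCtl and 3.11 and 2.998 in shM2-3. The targeted gene fell by 1.40 on the log2 scale (standard error 0.0688, edgeR quasi-likelihood adjusted p = 5.18e-10). Among markers of the labelled cell type, KRT7, KRT8 and KRT18 exceeded an RPKM of 1, whereas the other 7 of 10 measured genes, including EPCAM, CDH1 and PAX8, did not in any library. The summed RPKM of these 10 genes was 638 and 637 in shCtl and 313 and 317 in shM2-3. The smooth muscle markers MYH11 and DES stayed at an RPKM of 0.0778 or less in every library, and SMTN was the only 1 of 4 smooth muscle markers above 1. Summed fibroblast markers had an RPKM of 8.48 and 8.60 in shCtl and of 26.9 and 26.4 in shM2-3, through PDGFRA at 7.58 and 7.51 against 25.2 and 24.8, while DCN, LUM and COL3A1 stayed at 0.0636 or less. Summed leukocyte markers had an RPKM of 58.2 and 57.3 against 40.2 and 39.2, nearly all from CD68 with PTPRC at 0.0173 or less, and summed endothelial markers 9.21 and 10.3 against 5.49 and 4.95, mostly from CDH5 with VWF at 0.0855 or less. The third endothelial marker, PECAM1, went the other way, from an RPKM of 0.0376 and 0.0308 in shCtl to 1.31 and 0.923 in shM2-3 (log2 fold change 5.07, edgeR adjusted p = 2.09e-08). PECAM1 was among the genes tested only because shM2-3 replicate 1 exceeded an RPKM of 1. It had 6 and 5 counts in shCtl, so the size of its change is uncertain. The part of these marker shifts in the changes of the actin genes was not tested. In bulk RNA of 1 cell line, fewer cells expressing a gene and less of its RNA per cell cannot be told apart.

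The actin cytoskeleton genes moved in both directions, and most moved by less than 2-fold. Each gene was judged by edgeR's quasi-likelihood test, with p-values adjusted by the Benjamini-Hochberg method over every gene tested. At an adjusted p no higher than 0.05, 11 of the 31 tested genes fell and 17 rose in shM2-3 cells, that is 35.5% and 54.8%. Over all genes tested, 36.4% fell and 36.3% rose. With a fold change of 2 or more also required, which is the condition for a gene to be described as called, ACTA2, FLNC and SYNPO were called lower and TPM1, MRTFA and MRTFB were called higher. These are 9.68% of the tested genes in each direction, against 8.93% called lower and 9.24% called higher over all genes, so the shares of called genes were near the background. FHL1, PDLIM5 and CFL1 did not pass the test. The RPKM values of the 2 groups did not overlap for 29 of the 31 genes, against 86.0% of all genes tested. The median log2 fold change was 0.17 (range -1.54 to 1.53), with -0.0037 over all genes, and the median of its absolute size was 0.63, with 0.45 over all genes.

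**Figure D1:**
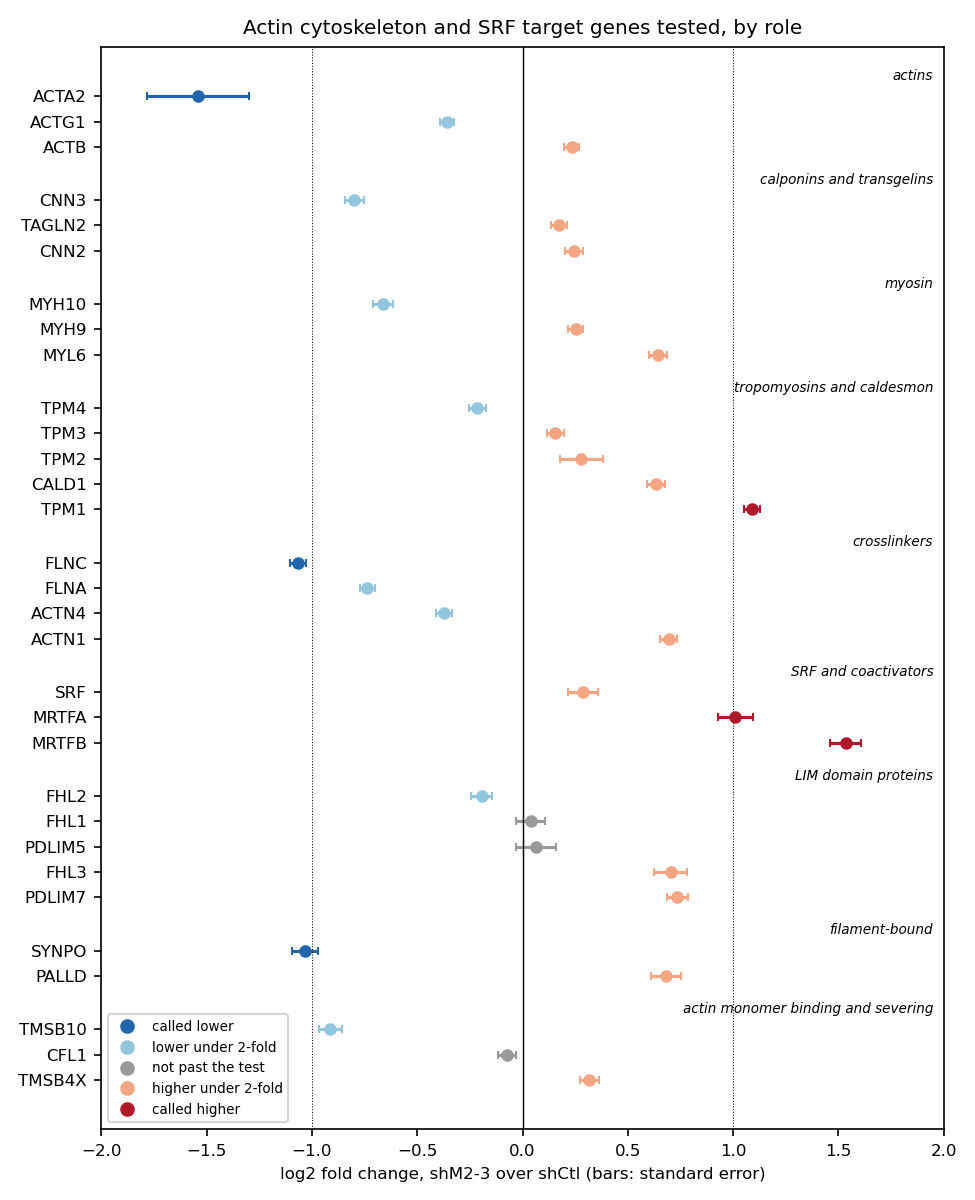
Log2 fold change (shM2-3 over shCtl, x axis) of the 31 tested genes, grouped by role on the y axis, with bars giving the standard error and dotted lines marking a 2-fold change. ACTA2 at -1.54 and MRTFB at 1.53 are the ends of the range, and every role with the exception of SRF with its coactivators holds genes on both sides of 0.

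Summed over the 37 genes, RPKM made up 2.41% and 2.45% of the RPKM of all genes in shCtl and 2.18% and 2.24% in shM2-3. This sum depends heavily on TMSB10. TMSB10 held 2871 and 2947 of a summed RPKM of 7820 and 7978 in shCtl. In shM2-3 it held 1378 and 1575 of 6271 and 6621. The lower share in shM2-3 therefore does not describe the other genes of the list. TMSB10 in shCtl exceeded 99.96% of tested genes in RPKM, and ACTG1 and ACTB exceeded 99.72% and 99.66%, while MRTFB exceeded 8.18%. The list thus spans nearly the whole range of expression, as the plot of fold change against level shows.

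**Figure D2:**
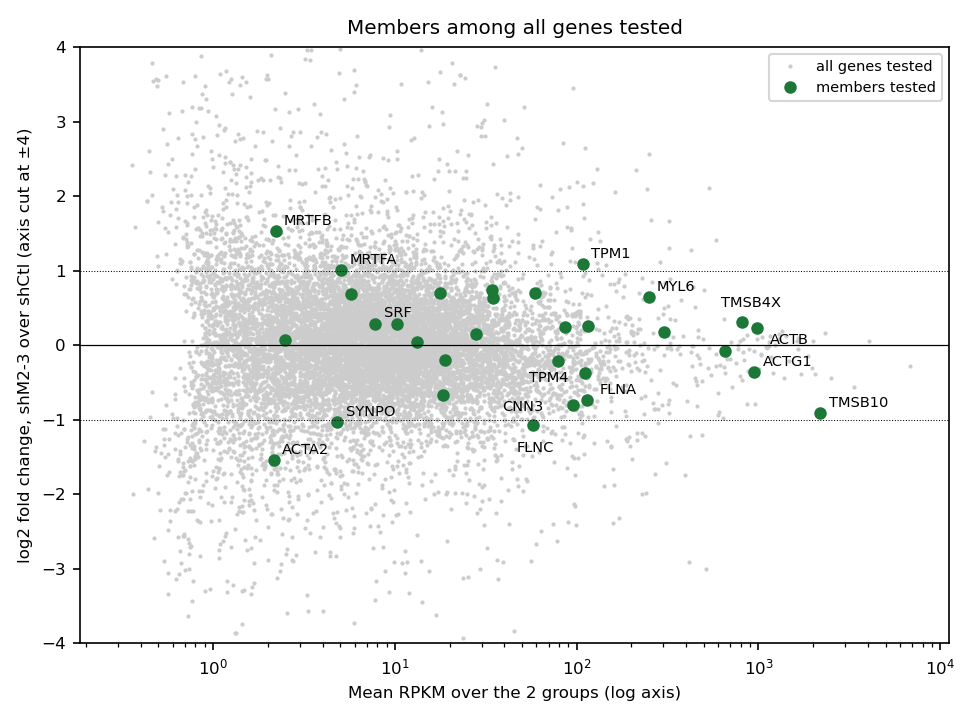
Log2 fold change (shM2-3 over shCtl) against mean RPKM of the 2 groups on a log axis, for all 12157 genes tested (grey) and the 31 actin cytoskeleton and SRF target genes (green). Of all genes tested, 104 lie outside the plotted range of ±4, and the green points stay within -1.54 and 1.53 from low RPKM (MRTFB) to the far right (TMSB10).

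The CArG box, to which SRF binds, was looked for on both strands in RefSeq promoters, given for 35 of the 38 genes. Promoters ran from 250 bases before to 50 bases after each annotated start (GRCh38.p14). Only exact matches to CC, 6 letters that are each A or T, and GG were counted. Boxes with a changed letter were not looked for. An exact match was found in 13 of the 75 promoters of these genes (17.3%, from 11 genes). The shares were 454 of all 35116 promoters (1.29%) and 1.13% of the promoters of tested genes. The sequences of the 8 tested genes with a CArG box are shown because they place the same element beside transcripts that fell, rose or did not pass the test; capitals mark the CArG box, sequences run 5′ to 3′ on the strand of the gene, and 1 window is given per gene.
FLNA, chrX:154374684-154374763, minus strand: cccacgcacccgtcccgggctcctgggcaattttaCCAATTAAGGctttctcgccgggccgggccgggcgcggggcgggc
ACTG1, chr17:81512849-81512928, minus strand: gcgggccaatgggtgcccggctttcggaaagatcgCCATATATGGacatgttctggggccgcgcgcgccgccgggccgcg
TPM4, chr19:16067330-16067409, plus strand: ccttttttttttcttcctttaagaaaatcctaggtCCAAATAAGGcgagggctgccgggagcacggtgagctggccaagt
FHL2, chr2:105399066-105399145, minus strand: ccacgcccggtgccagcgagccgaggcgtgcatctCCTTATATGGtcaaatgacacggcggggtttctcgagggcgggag
FHL1, chrX:136196886-136196965, plus strand: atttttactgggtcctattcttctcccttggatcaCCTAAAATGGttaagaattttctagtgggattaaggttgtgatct
CNN2, chr19:1026484-1026563, plus strand: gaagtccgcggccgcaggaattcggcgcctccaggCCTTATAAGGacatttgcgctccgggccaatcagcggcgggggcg
SRF, chr6:43171204-43171303, plus strand: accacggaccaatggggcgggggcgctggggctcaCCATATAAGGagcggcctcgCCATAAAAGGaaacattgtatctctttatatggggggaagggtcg
ACTN1, chr14:68977693-68977772, minus strand: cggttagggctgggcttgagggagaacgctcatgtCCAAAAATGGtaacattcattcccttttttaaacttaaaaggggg
Positions counted from the start site were -94 for FLNA, -94 for ACTG1, -173 for TPM4, -59 for FHL2, -126 for FHL1, -89 for CNN2, -30 and -10 for the pair in SRF and -171 for ACTN1. FLNA, ACTG1, TPM4 and FHL2 fell, CNN2, SRF and ACTN1 rose, and FHL1 did not pass the test, with a median log2 fold change of -0.08 for the 8 genes. Of the 22 tested genes without an exact CArG match in these windows, 7 fell and 13 rose, with a median of 0.21. FHL2 had a further CArG box, not shown, at -101 and -85 of 2 other annotated starts, and the remaining boxes were in ACTA1, ACTC1 and ACTG2, none of which was tested. ACTN1, FHL1, FHL2, SRF and TPM4 also have annotated starts without an exact match. Which start is used in ES-2 cells was not tested. The core recognised by TEAD factors, CATTCC on either strand, was in 15 of the 75 promoters (20.0%, from 14 genes), against 14.0% of all promoters and 11.5% of those of tested genes. A match describes these letters only. None of the 6 called genes had an exact CArG match in these windows, which leaves boxes with a changed letter unexamined.

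SRF and the coactivators MRTFA and MRTFB rose in shM2-3 cells. MRTFB, a coactivator that carries the actin signal to SRF (chromosome 16, 14071319 to 14266773, plus strand, hg38), had an RPKM of 1.17 and 1.17 in shCtl and 3.31 and 3.17 in shM2-3. Its log2 fold change of 1.53 (standard error 0.0750, edgeR adjusted p = 4.96e-10), a 2.90-fold rise, was the highest among the 31 genes. MRTFA (chromosome 22, 40410281 to 40636719, minus strand, hg38) had an RPKM of 3.58 and 3.37 in shCtl and 6.64 and 6.72 in shM2-3. In neither coactivator did the libraries of the 2 groups overlap, and the replicates of a group lay close together. The log2 fold change of MRTFA was 1.01 (standard error 0.0834, edgeR adjusted p = 1.18e-07), which is 2.01-fold and so just past the limit for a call. It was 0.97 with total counts in place of edgeR's TMM scaling, 0.96 without shCtl replicate 2 and 0.996 without shM2-3 replicate 2. It was 0.978 without the RPKM limit, 0.992 with edgeR's filterByExpr in its place, and 0.92 with limma on log2(RPKM + 0.1). With limma on log2(RPKM + 1), MRTFA had 0.78 and MRTFB 0.966, both short of a call. SGSM3, which overlaps MRTFA on the other strand, had a log2 fold change of -0.34, and reads of overlapping genes cannot be told apart by strand because the libraries did not keep it. SRF itself (chromosome 6, 43171269 to 43181506, plus strand, hg38) has a pair of CArG boxes in the promoter shown above. It had an RPKM of 7.06 and 7.33 in shCtl and 8.62 and 8.16 in shM2-3. The rise of SRF was smaller, at 0.29 on the log2 scale (standard error 0.0716, edgeR adjusted p = 2.58e-03).

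**Figure D3:**
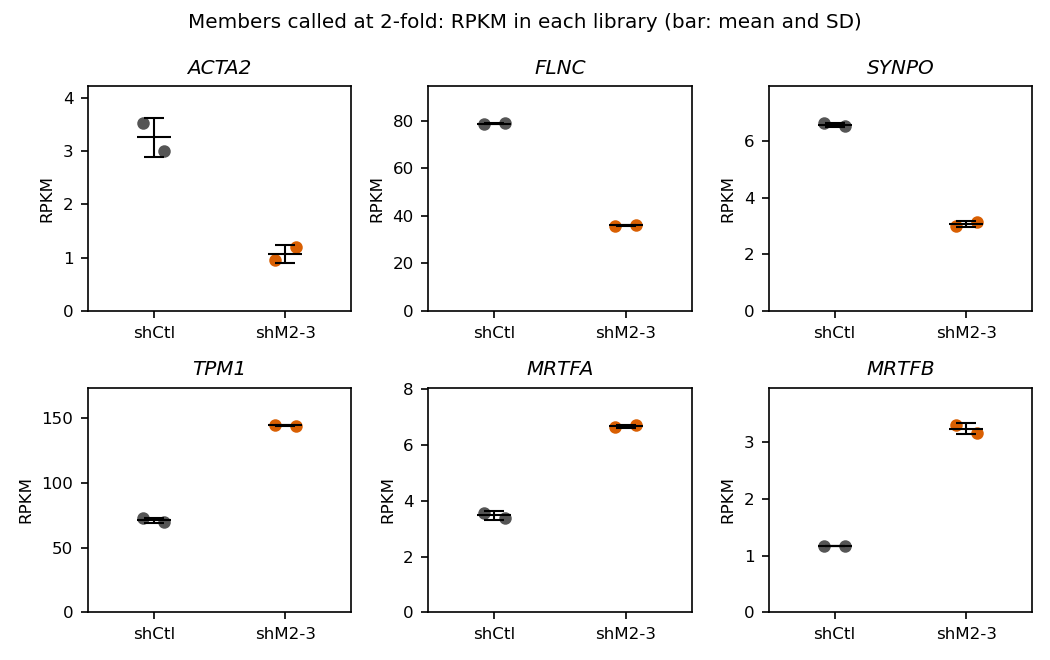
RPKM (y axis, starting at 0) of the 6 called genes in each library (points), with the mean and SD of the 2 libraries per group as bars. The shCtl libraries of ACTA2 (3.52 and 2.99), FLNC and SYNPO lie above those of shM2-3, and the order is the opposite for TPM1, MRTFA and MRTFB.

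Among the actins, the abundant cytoplasmic pair moved apart and the smooth muscle actin ACTA2 fell. ACTA2 (chromosome 10, 88935074 to 88991339, minus strand, hg38), a contractile actin of smooth muscle and myofibroblasts, had an RPKM of 3.52 and 2.99 in shCtl and 0.947 and 1.19 in shM2-3, from 149, 129, 49 and 56 counts. It fell by 1.54 on the log2 scale (standard error 0.242, edgeR adjusted p = 6.26e-05), or 2.91-fold, and its log2 fold change lay between -1.72 and -1.37 over the edgeR and DESeq2 alternatives. These levels are low next to the cytoplasmic actins, and the standard error of ACTA2 is the largest of the 31 genes. FAS overlaps ACTA2 on the other strand and had 140, 92, 93 and 59 counts in the same order of libraries, and ACTA2-AS1 had 0, 4, 11 and 9. The part of such reads in the ACTA2 values was not tested.

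ACTG1, the gamma cytoplasmic actin (chromosome 17, 81509413 to 81523847, minus strand, hg38), had an RPKM of 1085 and 1086 in shCtl and 799 and 819 in shM2-3. It fell by 0.36 on the log2 scale (standard error 0.0328, edgeR adjusted p = 3.38e-07). ACTB, the beta cytoplasmic actin (chromosome 7, 5526409 to 5563902, minus strand, hg38), had an RPKM of 906 and 951 in shCtl and 1035 and 1051 in shM2-3. ACTB rose by 0.23 on the log2 scale (standard error 0.0345, edgeR adjusted p = 3.66e-05). ACTB therefore went from 45.4% and 46.6% of the summed actin RPKM in shCtl to 56.4% and 56.1% in shM2-3, and ACTG1 from 54.4% and 53.2% to 43.6% and 43.8%. The order of the pair was reversed, with ACTG1 above ACTB in both shCtl libraries and below it in both shM2-3 libraries. Summed counts of the actins changed little in comparison (log2 fold change -0.07, standard error 0.0279, edgeR adjusted p = 0.0291), and this small value did not pass the test without shCtl replicate 1 (-0.09, adjusted p = 0.0810), shCtl replicate 2 (-0.06, adjusted p = 0.288) or shM2-3 replicate 1 (-0.05, adjusted p = 0.141). Both cytoplasmic actins have many pseudogenes, 21 named for ACTG1 and 12 for ACTB in GENCODE release 44, and their near-identical coding sequence makes the split of reads between them uncertain. ACTC1, the cardiac actin, had 2, 0, 2 and 0 counts and ACTG2, the enteric smooth muscle actin, had 0, 0, 1 and 5, and neither was tested.

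**Figure D4:**
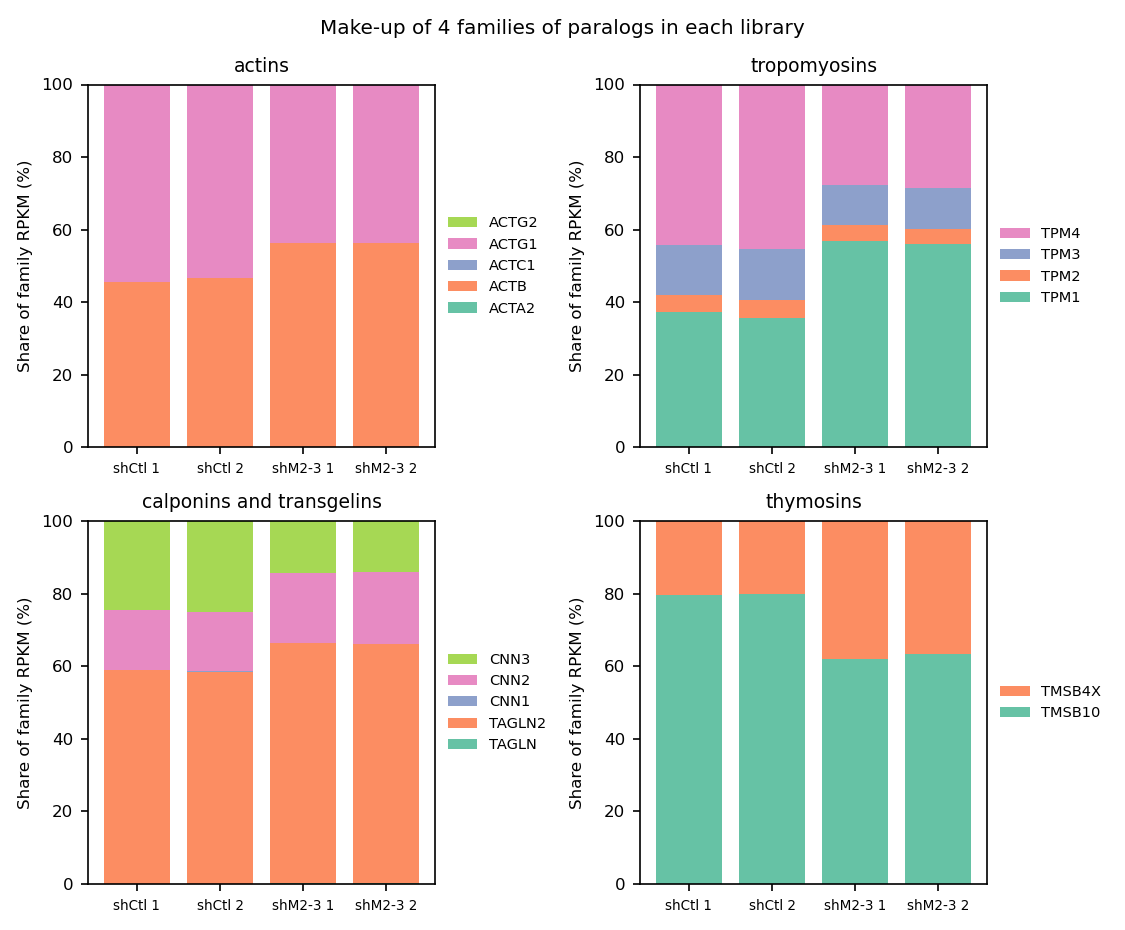
Share of each gene in the summed RPKM of its family (y axis, percent) in each of the 4 libraries (bars), for actins, tropomyosins, calponins with transgelins, and thymosins. ACTB, TPM1, TAGLN2 and TMSB4X take larger shares in shM2-3 than in shCtl, and genes with shares near 0, such as ACTA2 and CNN1, are not visible.

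Calponins and transgelins are related proteins that bind along actin filaments, and the non-muscle forms made up nearly all of the signal. CNN3, a calponin of non-muscle cells, had an RPKM of 118 and 127 in shCtl and 67.8 and 66.9 in shM2-3, and fell by 0.80 on the log2 scale (standard error 0.0450, edgeR adjusted p = 2.24e-09). CNN2, whose promoter sequence with its CArG box is shown above, had an RPKM of 79.9 and 82.1 against 90.4 and 93.0 and rose by 0.24 (standard error 0.0425, edgeR adjusted p = 1.56e-04). TAGLN2, the most abundant of the 5 genes, had an RPKM of 284 and 295 against 311 and 312 and rose by 0.17 (standard error 0.0376, edgeR adjusted p = 9.90e-04). CNN3 thus passed from above CNN2 in both shCtl libraries to below it in both shM2-3 libraries. The summed counts of the family had a fitted change of -0.03 on the log2 scale (standard error 0.0345, edgeR adjusted p = 0.448), with CNN3 at 24.4% and 25.2% of the family's RPKM in shCtl and 14.4% and 14.1% in shM2-3.

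TAGLN and CNN1, the smooth muscle members of that family, stayed below an RPKM of 1 in every library and were not among the genes tested. CNN1 had an RPKM of 0.722 and 0.710 in shCtl and 0.275 and 0.217 in shM2-3, from 30, 30, 14 and 10 counts. In a fit without the RPKM limit, its log2 fold change was -1.49 (standard error 0.543, edgeR adjusted p = 0.0133), and the adjusted p was 0.0577, 0.0684 and 0.105 without shCtl replicate 1, shM2-3 replicate 1 and shM2-3 replicate 2. TAGLN went the other way, with an RPKM of 0.182 and 0.287 in shCtl and 0.593 and 0.602 in shM2-3, from 18, 29, 72 and 66 counts. Its log2 fold change in that fit was 1.38 (standard error 0.354, edgeR adjusted p = 2.73e-04) and lay between 1.09 and 1.74 with each library left out in turn. PCSK7, which overlaps TAGLN on the other strand, had 427, 521, 995 and 818 counts and a log2 fold change of 0.79 (edgeR adjusted p = 5.10e-06), and its part in the TAGLN counts was not tested. ACTA2 and CNN1 were thus lower and TAGLN higher in shM2-3, all at low levels.

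The non-muscle myosin genes also moved in both directions. MYL6, the essential light chain shared by smooth muscle and non-muscle myosin II, had an RPKM of 194 and 205 in shCtl and 297 and 298 in shM2-3, and rose by 0.64 on the log2 scale (standard error 0.0436, edgeR adjusted p = 1.57e-08). MYL6B, which overlaps MYL6 on the same strand, had a log2 fold change of 0.17. MYH9, the heavy chain of myosin IIA, had an RPKM of 109 and 107 against 121 and 124 and rose by 0.25 (standard error 0.0358, edgeR adjusted p = 2.43e-05). MYH10, the heavy chain of myosin IIB, fell by 0.66 (standard error 0.0489, edgeR adjusted p = 3.67e-08), from an RPKM of 22.9 and 22.8 to 14.4 and 13.1, and NDEL1, which overlaps it on the other strand, had a log2 fold change of -0.31. The heavy chains were thus already unequal in shCtl and became more so, with MYH10 at 0.211 and 0.214 of the MYH9 RPKM in shCtl and at 0.119 and 0.106 in shM2-3. MYL9, the regulatory light chain of smooth muscle, had 0, 1, 1 and 0 counts.

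Tropomyosins are coiled coils that lie along the filament and set which motors and binding proteins reach it, and TPM1 rose most among them. TPM1 (chromosome 15, 63042620 to 63071915, plus strand, hg38) had an RPKM of 72.5 and 69.6 in shCtl and 145 and 144 in shM2-3. Its log2 fold change was 1.09 (standard error 0.0387, edgeR adjusted p = 1.75e-11), a 2.13-fold rise. The antisense gene TPM1-AS moved the other way, at -0.49, with 444, 420, 384 and 297 counts beside 9011 or more for TPM1. TPM4, with a CArG box in the promoter shown above, was the most abundant tropomyosin in shCtl. It had an RPKM of 85.6 and 88.6 against 70.3 and 73.1 in shM2-3, and fell by 0.21 (standard error 0.0411, edgeR adjusted p = 3.53e-04). TPM1 was below TPM4 in both shCtl libraries and above it in both shM2-3 libraries. TPM3 had an RPKM of 26.8 and 27.1 against 28.3 and 29.1, a rise of 0.16 (standard error 0.0399, edgeR adjusted p = 3.27e-03), which did not pass with limma on log2(RPKM + 0.1) (adjusted p = 0.102).

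TPM2 had an RPKM of 8.98 and 10.0 in shCtl and 11.2 and 10.8 in shM2-3. Its rise of 0.28 (standard error 0.103, edgeR adjusted p = 0.0251) was lost with DESeq2 (adjusted p = 0.0963), and without shCtl replicate 1, shM2-3 replicate 1 or shM2-3 replicate 2 (edgeR adjusted p = 0.157, 0.0903 and 0.0546). The summed counts of the 4 tropomyosins rose by 0.45 (standard error 0.0314, edgeR adjusted p = 2.24e-08). Within the summed RPKM, TPM1 took 37.4% and 35.6% in shCtl and 56.9% and 56.1% in shM2-3, and TPM4 took 44.2% and 45.4% against 27.6% and 28.4%. CALD1, which encodes the tropomyosin-binding protein caldesmon, rose with TPM1, from an RPKM of 27.7 and 28.0 to 42.4 and 40.1 (log2 fold change 0.63, standard error 0.0431, edgeR adjusted p = 1.59e-08).

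Of the 4 crosslinkers, both filamins and ACTN4 fell and ACTN1 rose. FLNC, a filamin typical of striated muscle (chromosome 7, 128830406 to 128859274, plus strand, hg38), had an RPKM of 78.7 and 78.9 in shCtl and 35.7 and 36.2 in shM2-3. Its log2 fold change was -1.07 (standard error 0.0375, edgeR adjusted p = 1.60e-11), 2.09-fold lower, and the replicates differed by less than 1 RPKM. FLNA, the widely expressed filamin with a CArG box in its promoter, had an RPKM of 145 and 145 against 82.7 and 83.6 and fell by 0.74 (standard error 0.0346, edgeR adjusted p = 3.29e-10). The alpha-actinins, which bundle filaments at adhesions and stress fibres, parted. ACTN1 rose by 0.69 (standard error 0.0411, edgeR adjusted p = 3.78e-09), from an RPKM of 47.0 and 45.8 to 71.7 and 71.8. ACTN4 fell by 0.37 (standard error 0.0369, edgeR adjusted p = 7.41e-07), from an RPKM of 126 and 129 to 93.9 and 94.8. ACTN4 stayed above ACTN1 in every library, while the ratio of ACTN1 to ACTN4 went from 0.372 and 0.354 to 0.763 and 0.757.

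LIM domain proteins use zinc-binding modules to dock at filaments and adhesions or to act with transcription factors, and 3 of the 5 tested here passed the test. PDLIM7, a PDZ and LIM protein of stress fibres, had an RPKM of 25.7 and 26.8 in shCtl and 41.8 and 41.8 in shM2-3, and rose by 0.73 on the log2 scale (standard error 0.0505, edgeR adjusted p = 1.79e-08). FHL3 rose by 0.70 (standard error 0.0791, edgeR adjusted p = 2.66e-06), from 13.3 and 14.3 to 21.0 and 22.1 RPKM. FHL2, an SRF target that also binds SRF, fell by 0.19 (standard error 0.0490, edgeR adjusted p = 2.90e-03), from 20.9 and 20.0 to 16.7 and 17.5 RPKM. FHL2 was therefore above FHL3 in both shCtl libraries and below it in both shM2-3 libraries. FHL1 had an RPKM of 12.7 and 13.9 in shCtl and 13.7 and 12.4 in shM2-3 (log2 fold change 0.04, standard error 0.0676, edgeR adjusted p = 0.622). PDLIM5 had an RPKM of 2.69 and 2.32 against 2.47 and 2.53 (log2 fold change 0.07, standard error 0.0945, edgeR adjusted p = 0.547). FHL1 and PDLIM5 were the only 2 of the 31 tested genes whose groups overlapped.

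SYNPO and PALLD encode proteins that sit on stress fibres, and they moved in opposite directions. SYNPO, encoding synaptopodin (chromosome 5, 150601080 to 150659207, plus strand, hg38), had an RPKM of 6.63 and 6.53 in shCtl and 3.004 and 3.14 in shM2-3. It fell by 1.03 on the log2 scale (standard error 0.0636, edgeR adjusted p = 5.63e-09), or 2.05-fold, which is close to the limit for a call. Without shM2-3 replicate 1 its log2 fold change was -0.99. PALLD, encoding palladin, rose by 0.68 (standard error 0.0719, edgeR adjusted p = 1.44e-06), from an RPKM of 4.31 and 4.75 to 7.14 and 6.71. LMOD1, a leiomodin of smooth muscle that seeds filaments, had 8, 18, 2 and 10 counts, and its groups overlapped.

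Thymosins hold actin as monomers, and TMSB10 was the most abundant of the actin cytoskeleton genes. TMSB10 (chromosome 2, 84905656 to 84906671, plus strand, hg38) had an RPKM of 2871 and 2947 in shCtl and 1378 and 1575 in shM2-3. It fell by 0.91 on the log2 scale (standard error 0.0534, edgeR adjusted p = 3.30e-09), or 1.88-fold, short of a call, and its log2 fold change was -1.02 without shM2-3 replicate 2. TMSB4X had an RPKM of 735 and 742 in shCtl and 847 and 911 in shM2-3 and rose by 0.32 (standard error 0.0436, edgeR adjusted p = 1.82e-05). TMSB10 made up 79.6% and 79.9% of the summed RPKM of the pair in shCtl and 61.9% and 63.4% in shM2-3. Their summed counts fell by 0.49 (standard error 0.0443, edgeR adjusted p = 3.45e-07). TRABD2A, which overlaps TMSB10 on the other strand, had a log2 fold change of -0.46 with 921 counts or fewer per library, beside 18195 or more for TMSB10. CFL1, encoding the filament-severing protein cofilin, had an RPKM of 695 and 687 in shCtl and 604 and 649 in shM2-3. Its log2 fold change of -0.07 (standard error 0.0418) had an edgeR adjusted p of 0.123, although it passed with total counts (-0.11, edgeR adjusted p = 0.0145) and without shM2-3 replicate 2 (-0.13, edgeR adjusted p = 0.00883).

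Close relatives were compared within each library by the ratio of their RPKM, a comparison chosen after values of these genes had been seen. The pairs were the 2 most abundant tested genes of 10 subfamilies: actins, calponins, myosin heavy chains, tropomyosins, alpha-actinins, filamins, MRTF coactivators, FHL proteins, PDLIM proteins and thymosins. In all 10 pairs the ratios of shCtl and shM2-3 did not overlap, and in 8 of them the mean ratio moved by 1.5-fold or more. No such share was computed for other pairs of genes, and since 86.0% of all single genes did not overlap between the groups, nothing particular to these pairs is read from the counts. With 2 libraries per group, an exact permutation test of 1 ratio cannot go below p = 0.333, so the ratios are given without a call. In 7 pairs 1 gene rose and the other fell at an adjusted p of 0.05 or less, where 36.3% of all genes rose and 36.4% fell. The ratio of TPM1 to TPM4 moved most, from 0.847 and 0.786 in shCtl to 2.06 and 1.97 in shM2-3, a 2.47-fold change. TMSB10 over TMSB4X went from 3.91 and 3.97 to 1.63 and 1.73. CNN2 over CNN3 went from 0.677 and 0.646 to 1.33 and 1.39, and FHL2 over FHL3 from 1.57 and 1.40 to 0.798 and 0.791. FLNA over FLNC moved least, from 1.84 and 1.84 to 2.31 and 2.31, and both filamins fell. MRTFA over MRTFB went from 3.06 and 2.87 to 2.01 and 2.12, and both rose.

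**Figure D5:**
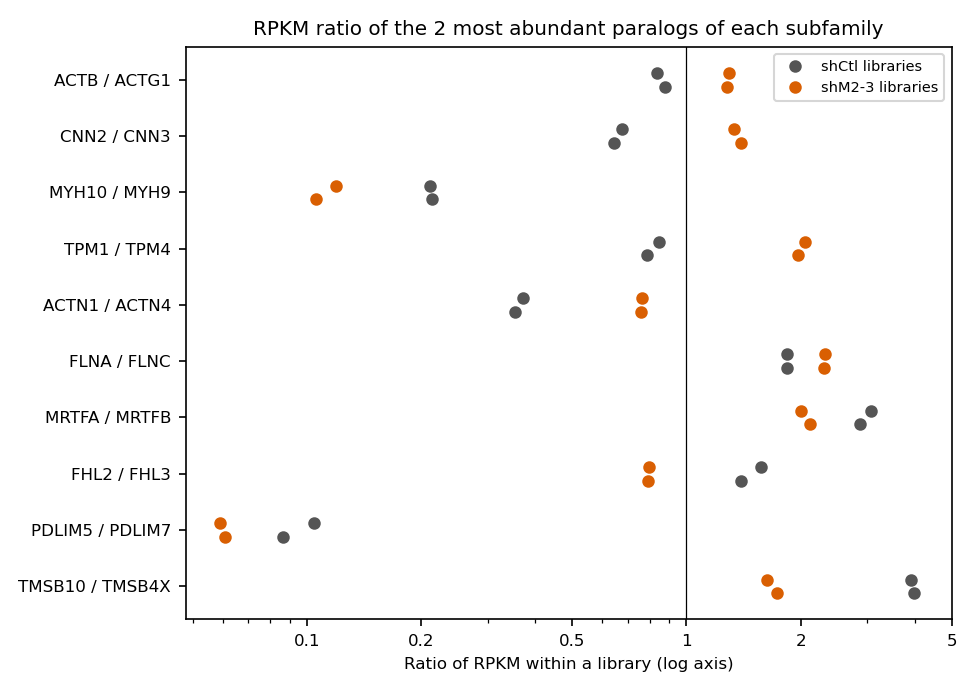
Ratio of RPKM between the 2 most abundant tested genes of 10 subfamilies (x axis, log scale) in the shCtl libraries (grey) and the shM2-3 libraries (orange), with the 2 points of a group set slightly apart in height. Grey and orange points do not overlap in any of the 10 pairs, and the ratios of ACTB to ACTG1, CNN2 to CNN3, TPM1 to TPM4 and FHL2 to FHL3 lie on opposite sides of 1 in the 2 groups.

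Other genes of the same pathway were taken from lists of gene names, drawn up with earlier results of these data known. Among 31 tested of 35 other targets of MRTF and SRF, 16 fell and 13 rose, with a median log2 fold change of -0.39 against -0.0037 over all genes tested. Over all genes tested, 36.4% fell and 36.3% rose, and 8.93% were called lower and 9.24% called higher. Of these 31 targets, 7 were called lower and 3 higher. The lowest were ANKRD1, a muscle ankyrin repeat protein, and the matricellular proteins CCN1 and CCN2, all of which are known targets of YAP1 and TEAD as well. ANKRD1 went from an RPKM of 317 and 325 to 1.88 and 2.30 (log2 fold change -7.20, edgeR adjusted p = 8.09e-17). CCN1 and CCN2 fell too, with log2 fold changes of -4.88 and -4.15 (edgeR adjusted p = 8.09e-17 and 6.65e-16). The highest were ITGA5, the fibronectin receptor subunit, TES and SVIL, which rose by 2.64, 2.48 and 2.27 (edgeR adjusted p = 1.56e-14, 1.15e-10 and 1.93e-13). The changes of ANKRD1, CCN1 and CCN2 were thus far larger than that of any of the 31 tested genes described above, whose range was -1.54 to 1.53.

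SRF also acts with ternary complex factors on immediate early genes. Of 16 such genes, all tested, 8 fell and 7 rose (median log2 fold change -0.11), with 3 called lower and 3 called higher. The shares over all genes tested were 36.4% fallen, 36.3% risen, 8.93% called lower and 9.24% called higher. DUSP1, a MAP kinase phosphatase, FOSL1, an AP-1 subunit, and NR4A1, an orphan nuclear receptor, fell, with log2 fold changes of -2.40, -1.53 and -1.39 (edgeR adjusted p = 5.93e-14, 5.90e-13 and 1.66e-05). IER3 rose by 1.12 (edgeR adjusted p = 4.40e-11). EGR2 and EGR3, zinc finger factors, were near 0 in shCtl, with 6 and 10 counts for EGR2 and 0 and 5 for EGR3, and had 170 and 164 and 162 and 151 counts in shM2-3. The fitted log2 fold change of EGR2 was 4.22 (edgeR adjusted p = 6.81e-08). That of EGR3 was 5.76 (edgeR adjusted p = 2.20e-07), but 4.81 without shCtl replicate 1 and 10.2 without shCtl replicate 2, so its size is not fixed by these counts.

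Of 41 tested among 42 genes of actin nucleation and turnover, 15 fell and 19 rose (median log2 fold change 0.08). In this list 2 were called lower and 5 called higher. Beside these counts, 36.4% of all genes tested fell, 36.3% rose, 8.93% were called lower and 9.24% called higher. TMOD1, which caps the slow-growing filament end, rose by 2.42, the formin FMNL3 by 1.51 and the severing protein gelsolin (GSN) by 1.47 (edgeR adjusted p = 3.38e-07, 5.98e-12 and 6.50e-11). WASF3 and the profilin PFN2 fell, with log2 fold changes of -1.09 and -0.81 (edgeR adjusted p = 2.90e-07 and 1.26e-09). CAPG, at 42, 17, 11 and 6 counts, stood at -1.93 on the log2 scale (edgeR adjusted p = 0.0143), but the adjusted p was 0.211 without shCtl replicate 1 and 0.0832 without shM2-3 replicate 2. Among 14 smooth muscle genes outside the 38, 11 were in the tables and only PGM5 and SMTN were tested. PGM5 went from an RPKM of 1.25 and 1.02 to 0.0963 and 0.149. PGM5 and SMTN both fell, with log2 fold changes of -3.14 and -0.65 (edgeR adjusted p = 5.07e-06 and 4.95e-08).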

How the data were processed

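RNA from ES-2 cells (shCtl, n = 2, and shM2-3, n = 2) was sequenced as paired, non-strand-specific libraries. The authors aligned reads to hg38 with HISAT2 2.0.4, removed ambiguous and low-quality alignments, and quantified RefSeq transcripts in Partek 7.18. The authors deposited raw estimated counts, of which 42.6% to 48.8% per library, genes at 0 included, lay within 1e-06 of a whole number. The deposited RPKM values were scaled by the authors for transcript length and mapped reads.

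Rounded counts entered the quasi-likelihood test of edgeR 4.0.16 (R 4.3.3, TMM scaling, no block), with Benjamini-Hochberg adjustment. Genes tested exceeded an RPKM of 1 in 1 library or more. Some named genes passed this filter in 1 group only, which was the group in which they were higher. These include EGR2, EGR3, TMOD1, PECAM1 and PDGFRB in shM2-3, and PGM5 and CAPG in shCtl. A gene rose or fell at an adjusted p of 0.05 or less, and was called if the fold change was also 2 or more. Standard errors of log2 fold changes were derived from the F statistic. The filter and limits are those of the study's methods. Alternatives were DESeq2 1.42.0, DESeq2 size factors, total counts, filterByExpr, no RPKM filter, limma 3.58.1 on log2(RPKM + 0.1) and log2(RPKM + 1), a fold change of 1.5, a replicate block, and leaving out single libraries. Leaving out libraries and blocking for the summed families, fits of genes below the filter, and ratios between relatives were added after values had been seen. The test was first checked on data with known changes.

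Samples were grouped by their labels. Members and gene lists were chosen with earlier results of these data known. All members are named, with MAML2 and, from each list, up to 3 lowest and 3 highest genes at an adjusted p of 0.05 or less. A few items that this would name are not reported here. Other genes were named as markers or because they overlap a member. Loci came from GENCODE release 44 (hg38) and promoters from RefSeq (GRCh38.p14). An SD here rests on 2 libraries, and low counts add counting error. The variance between replicates was 3.51 times (shCtl) and 4.09 times (shM2-3) that expected from sampling, as a chi-square per degree of freedom. Exons of 17 of the 38 genes overlap another gene, and 13 have named pseudogenes, so their counts are less certain. Samples of the study's other experiments were not analysed here.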

Additional observations from a re-analysis of the deposited data

How the results depend on the processing

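The median log2 fold change of the tested actin cytoskeleton genes was 0.17 and became 0.137 with total counts, 0.1065 and 0.1062 with limma on log2(RPKM + 0.1) and log2(RPKM + 1), 0.1416 without the RPKM filter, and 0.1656 to 0.1955 with each library left out. Against 3 called lower and 3 called higher, a fold change of 1.5 gave 7 and 9. With limma on log2(RPKM + 1), 2 were called lower and 1 called higher. Total counts, limma on log2(RPKM + 0.1), no RPKM filter and filterByExpr each gave 3 called lower and 2 called higher. FHL1 had -0.02823 and -0.02641 with limma on log2(RPKM + 0.1) and log2(RPKM + 1) and -0.03146 to 0.1059 with libraries left out, and PDLIM5 had -0.04231 to 0.1808; neither passed the test in any of these. The sum of actins was -0.09255 to -0.052 with libraries left out and -0.07386 with the replicate block (edgeR adjusted p = 0.0718), and the sum of calponins and transgelins was -0.05908 to 7.787e-05. Deviations of samples with the same replicate number had a correlation over genes of -0.0167. This value cannot show whether such samples shared anything beyond that number. The replicate block gave 3 called lower, 3 called higher, 11 lower and 17 higher at the adjusted p. The causes were not tested. Total counts moved the median of all genes to -0.039. With 2 libraries per group, leaving one out leaves a lone library assumed to vary like the other group, and genes under about 30 counts, such as TAGLN and CNN1 in shCtl, are limited by depth.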
